A study of Mus musculus with 12 samples.

Results

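The 45 genes described here code for the proteins that license replication origins and build the replication fork, and they were chosen by symbol and sorted into 10 complexes or functional groups. All 45 were found among the 24062 gene symbols with read counts. The counts come from 12 bulk poly(A) RNA-seq libraries, 1 per mouse, in 4 groups of 3 mice. The MYC-ON livers came from male FVB mice carrying LAP-tTA and TRE-MYC, in which a liver promoter construct drives the tetracycline transactivator that switches on a MYC transgene. The breeders received doxycycline in the drinking water at 1 mg/mL, which held the transgene off until birth. Of the liver mice, 101, 102 and 103 received the complete (control) diet, and the diet without tryptophan (No-Trp) went to mice 105, 107 and 108. The xenografts grew from HCC53N, 1 mouse liver cancer line that lacks p53 and overexpresses mutant NRAS, injected subcutaneously into NOD SCID females, a strain that lacks T and B lymphocytes. The labels also call these cells MYC ON. The control tumors are those of mice 40, 41 and 43, and the No-Trp tumors those of mice 35, 36 and 37. Each mouse had eaten its diet for 21 days. The labels give an age of 45 days for another comparison only, and no age for these mice. The tetracycline system and the p53 and NRAS changes were shared by the control and No-Trp mice of each model, and the labels give no treatment that differs between them other than the diet.

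Before a cell can copy its DNA, the origin recognition complex (ORC) marks the origins, and CDC6 and CDT1 load rings of the MCM2-7 helicase onto them, a step called licensing. CDC45 and the GINS complex then join MCM2-7 to form the active helicase. DNA polymerase alpha with its primase starts each strand, polymerase epsilon extends the leading strand and polymerase delta the lagging strand, both held on DNA by the ring-shaped clamp PCNA, which the RFC complex loads. Replication protein A (RPA) covers the exposed single strands, and FEN1, LIG1, DNA2 and RNase H2 help to turn Okazaki fragments into a continuous strand. Adult hepatocytes seldom divide, and many of these genes are transcribed mainly in dividing cells, where the E2F family of transcription factors is a main regulator.

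Reads counted on genes ranged from 14865881 to 23751118 per liver and from 14660963 to 26085349 per xenograft. The 45 genes held 0.0625% to 0.399% of them in the livers and 0.206% to 0.290% in the xenografts, and edgeR estimated the spread between mice over all genes at 31.6% in the livers and 28.7% in the xenografts. The lowest counts were 17 for Orc1, 18 for Gins3 and 28 for Pole2, all in liver 107, where counting error alone is 24.3%, 23.6% and 18.9%. In that library 6 of the 45 genes had fewer than 100 reads, and no other gene of the 45 was under 100 in any library. Levels are given as CPM, read counts scaled to a common library size with TMM factors, in the order in which the mice of a group are listed above. A gene counts as called where its adjusted p was 0.05 or less. All p-values measure the spread between these mice. The hepatocyte markers checked the livers against their label. They summed to 15266, 43621 and 11946 CPM in the control livers and to 64029, 132569 and 53750.3 CPM in the No-Trp livers, and lay between 674 and 1486 CPM in the xenografts, where Hnf4a was present (151 to 315 CPM) and markers of bile duct cells reached 2946 to 10800 CPM in all. Of the 45 genes, 11 share exonic bases with another counted gene, and since the strand setting of the counting is not given in the sources used here, reads of such pairs cannot be told apart. These are Orc2, Orc6, Mcm7, Gins2, Rfc2, Rfc4, Rfc5, Fen1 and the 3 RNase H2 genes Rnaseh2a, Rnaseh2b and Rnaseh2c.

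The promoters were read first, because the genes are best known as E2F targets. RefSeq promoter sequences on GRCm38.p6, 250 bases before and 50 after the start of transcription, were at hand for 36 of the 45 genes (43 promoters). The words TTTCCCGC, TTTCGCGC, TTTGCCGC and TTTGGCGC, which match the E2F consensus, were searched on both strands. They occurred in 16 of the 36 genes (44.4%), against 2.6% of the 27025 genes with a promoter, and in 17 of the 43 promoters (39.5%), against 2.26% of all 32851. Of the 23 matches, which lie at 22 positions because both Pole4 promoters hold the same one, 4 shared bases with another E2F word and 1, in Mcm7, with a CCAAT box. A match is a description of letters and not a measured site. The windows with the most matches outside any annotated exon are those of the helicase subunits Mcm6 and Mcm5. They are shown as the 250 bases upstream of the RefSeq start, 5′ to 3′ on the gene's strand, with the E2F words in capitals, at chr1:128359706-128359955 on the minus strand for Mcm6 and chr8:75109259-75109508 on the plus strand for Mcm5. In each, 2 words overlap head to head over 4 bases. Neither promoter was among the 38 of 43 whose bases after the start matched a transcript of the gene in the GENCODE annotation. For both genes, GENCODE places the start further downstream than RefSeq does.
Mcm6: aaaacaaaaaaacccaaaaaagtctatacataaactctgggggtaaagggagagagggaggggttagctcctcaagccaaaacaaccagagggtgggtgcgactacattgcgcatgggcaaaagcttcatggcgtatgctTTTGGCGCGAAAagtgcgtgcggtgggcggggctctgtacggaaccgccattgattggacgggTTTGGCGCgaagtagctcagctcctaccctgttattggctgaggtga
Mcm5: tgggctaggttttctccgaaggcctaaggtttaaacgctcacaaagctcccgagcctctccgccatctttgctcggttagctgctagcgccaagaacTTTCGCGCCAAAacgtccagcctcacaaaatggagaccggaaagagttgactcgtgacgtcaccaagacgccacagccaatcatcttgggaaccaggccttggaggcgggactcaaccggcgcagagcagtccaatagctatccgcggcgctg

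For 5 further genes the match is shown as 24 bases with the word in capitals. They were taken for the gene with the largest diet difference in the livers (Cdc6), an ORC subunit (Orc1), the catalytic subunit of polymerase alpha (Pola1), another helicase subunit (Mcm7) and the only one of the 45 genes whose liver level was not lower without tryptophan (Pole4). They lie at chr11:98908005-98908028, plus strand (Cdc6), chr4:108579419-108579442, plus strand (Orc1), chrX:93632278-93632301, minus strand (Pola1), chr5:138172033-138172056, minus strand (Mcm7) and chr6:82652893-82652916, minus strand (Pole4). By the GENCODE bounds of the genes, only the Pola1 window lies before its gene. The windows of Cdc6, Mcm7 and Pole4 lie inside the gene, and that of Orc1 spans the gene start, with the word after it. For this Mcm7 promoter, all 250 bases before the RefSeq start are exonic.
Cdc6: ggtggagaGCGGGAAAtcgcctgg
Orc1: ggttagtgGCGCGAAAagttttct
Pola1: atcacaggGCGCCAAAtgcactcc
Mcm7: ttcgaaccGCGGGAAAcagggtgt
Pole4: tacccggcGCGGGAAAggggccga

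Other promoter words were searched too. The E-box CACGTG, a MYC binding word, occurred in 6 of the 36 genes (16.7%, against 8.09% of all genes), CCAAT in 22 (61.1%, against 41.1%) and the cell cycle words TTTGAA or TTCGAA in 8 (22.2%, against 21.7%), each searched on both strands.

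The first comparison asked how the replication genes differed between MYC-ON livers of mice on the No-Trp and the control diet. Of the 45 genes, 44 had a lower fitted level without tryptophan, with a median log2 fold change of -1.31 against -0.00 over all 14122 genes tested. Of these, 37 fell by the edgeR test, where 12% of all genes did, and 31 of them had a log2 fold change of -1 or less, where 7.27% of all genes did. For 42 of the 45 genes, all 3 No-Trp mice lay below all 3 control mice, as they did for 25% of all genes. No member rose. In bulk tissue, fewer cells of a type and less RNA per cell cannot be told apart.

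The 3 No-Trp livers were not equally low. Relative to the control mean, the median over the 45 genes was -1.12 on the log2 scale in mouse 105, -2.19 in mouse 107 and -1.09 in mouse 108, while the control mice stood at 0.08, -0.11 and 0.04. Mouse 107 was lowest of the 6 livers for 42 of the 45 genes. Without mouse 107, 31 genes still fell and the median was -1.05. The count of calls rested on other mice. It was 2 without control mouse 101, 0 without control mouse 103 and 2 without mouse 105, although the medians were -1.36, -1.28 and -1.46. In the fit without mouse 103, edgeR called 8 of 14240 genes in all, while 41 of the 45 had an unadjusted p under 0.05. DESeq2 on all 6 livers called 39 of the 45, and 4799 of 18881 genes in either direction. The heatmap of the 45 genes by mouse shows the depth of mouse 107 in nearly every row.

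**Figure D1:**
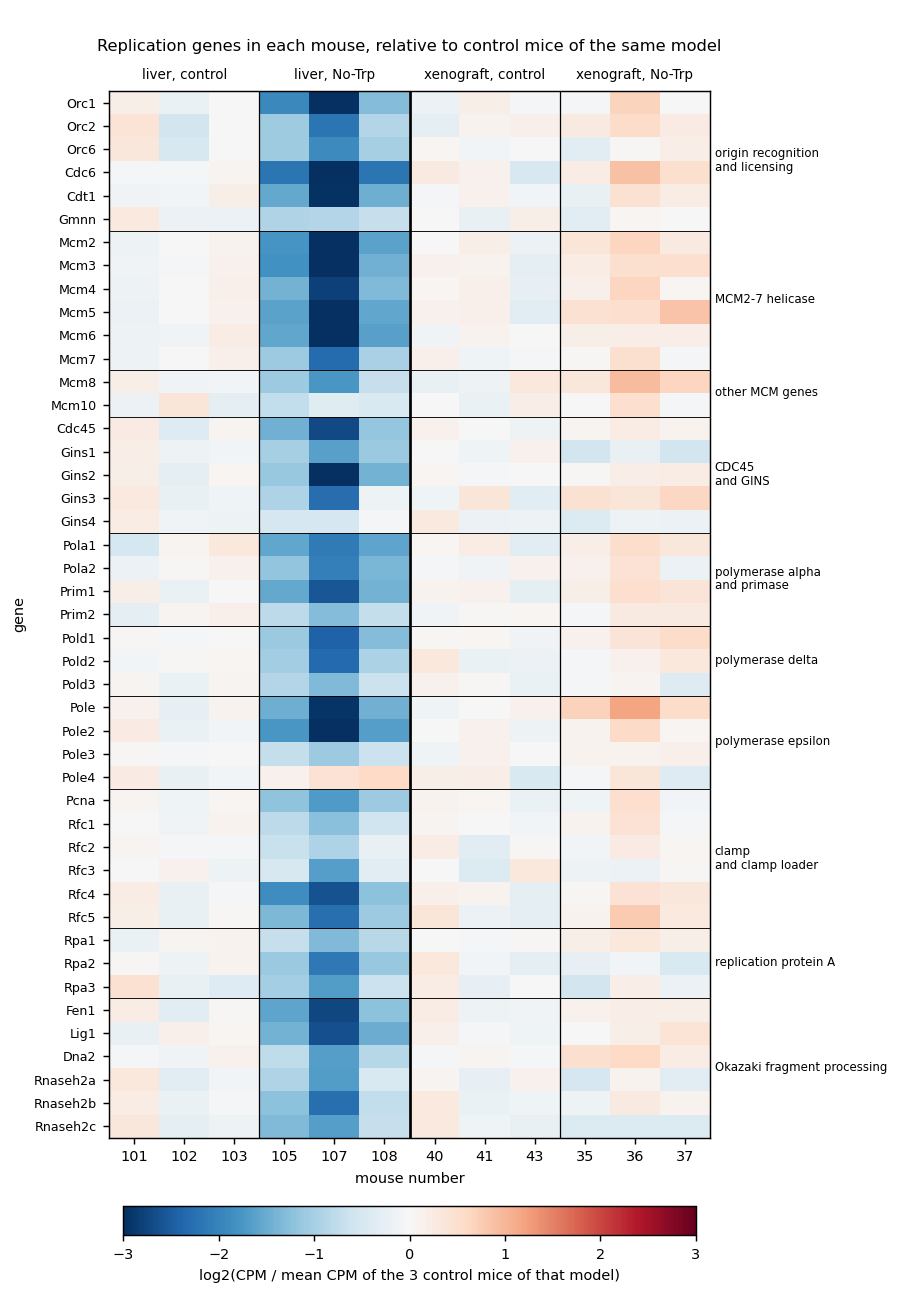
Each row is 1 of the 45 replication genes, grouped by complex, and each column 1 mouse, numbered below and grouped by model and diet above. Colour is the log2 ratio of CPM to the mean of the 3 control mice of the same model, cut at -3 and 3. The 3 No-Trp livers are blue in nearly all rows, most deeply mouse 107, whose median is -2.19, while Pole4 is not, and the No-Trp xenografts are pale, with medians of 0.05, 0.37 and 0.18.

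The licensing genes all fell. Cdc6 (chr11:98907801-98923940, plus strand), which loads the helicase at origins, stood at 40.2, 39.6 and 43.5 CPM in the control livers and 9.04, 2.95 and 8.94 CPM in the No-Trp livers. Its log2 fold change of -2.55 ± 0.40 (SE, adjusted p = 0.0171) was the largest of the 45. The groups lay far apart, and even the highest No-Trp liver had less than the lowest control liver. Cdt1, the partner of Cdc6 in loading, went from 103, 103 and 123 CPM to 37.5, 14 and 39.5 CPM, a log2 fold change of -1.84 ± 0.37 (SE, adjusted p = 0.0221). Gmnn, which codes for geminin, the inhibitor of CDT1, changed least in this group, from 60.6, 43.5 and 44.1 CPM to 26.4, 26.9 and 30.5 CPM (log2 change -0.81 ± 0.19, adjusted p = 0.0268). Its 3 No-Trp livers were close to each other, and mouse 107 was not the lowest of them, unlike for Cdt1.

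Among the ORC subunits in the set, Orc1 was low throughout, at 19.1, 14.8 and 16.9 CPM in the control livers and 4.46, 1.05 and 6.92 CPM in the No-Trp livers, and had a log2 fold change of -2.03 ± 0.58 (SE, adjusted p = 0.0423). Orc1 is the subunit known to vary with the cell cycle. Orc2 went from 90.4, 47.1 and 68.1 CPM to 32.5, 15 and 37.4 CPM (log2 change -1.26 ± 0.38, adjusted p = 0.0477), and its control livers spread widely, mouse 102 being the lowest. Orc6 went from 46.3, 26 and 36.9 CPM to 17.3, 9.66 and 18.2 CPM (log2 change -1.26 ± 0.31, adjusted p = 0.0307). The remaining ORC subunits were in a list of 34 other replication factors, and Orc3, Orc4 and Orc5 had log2 fold changes of -0.27, -0.45 and -0.71, none of which passed the test (adjusted p of 0.420, 0.178 and 0.0982).

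The 6 subunits of the MCM2-7 ring fell together, with the lowest median of the 10 groups, -1.96. Their summed level in the No-Trp livers was 28.4% of that in the control livers. Mcm2 (chr6:88883474-88898780, minus strand) stood at 178, 199 and 213 CPM in the control livers and 57.9, 16.2 and 65 CPM in the No-Trp livers, with a log2 fold change of -2.07 ± 0.47 (SE, adjusted p = 0.0273). Mcm6 (chr1:128331590-128359664, minus strand), whose promoter is printed above, went from 220.2, 228 and 282 CPM to 82, 18.8 and 78.2 CPM (log2 change -2.02 ± 0.51, adjusted p = 0.0334). Mcm5 (chr8:75109569-75128439, plus strand), the other one printed, went from 124, 142 and 154 CPM to 46, 14 and 47.1 CPM (log2 change -1.96 ± 0.43, adjusted p = 0.0254). In all of these, mouse 107 had the lowest level and mice 105 and 108 were close to each other.

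Mcm3 went from 122, 129 and 144 CPM to 37.3, 15.4 and 48.2 CPM, with a log2 fold change of -1.95 ± 0.38 (SE, adjusted p = 0.0211). Mcm4 went from 82.5, 89.8 and 101 CPM to 34.3, 13.2 and 36.2 CPM (log2 change -1.70 ± 0.36, adjusted p = 0.0239). Mcm7, which shares exonic bases with Ap4m1 and Cops6 and hosts Mir25 and Mir93, went from 202, 223 and 251 CPM to 105, 45.6 and 115 CPM (log2 change -1.33 ± 0.34, adjusted p = 0.0320). The 2 diets did not overlap for any of the 6 subunits, and Mcm7 had the smallest change among them. The plot of MCM2-7 levels shows the gap between the diets in the livers, and the levels in the xenografts, where none of the 6 passed the edgeR test.

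**Figure D2:**
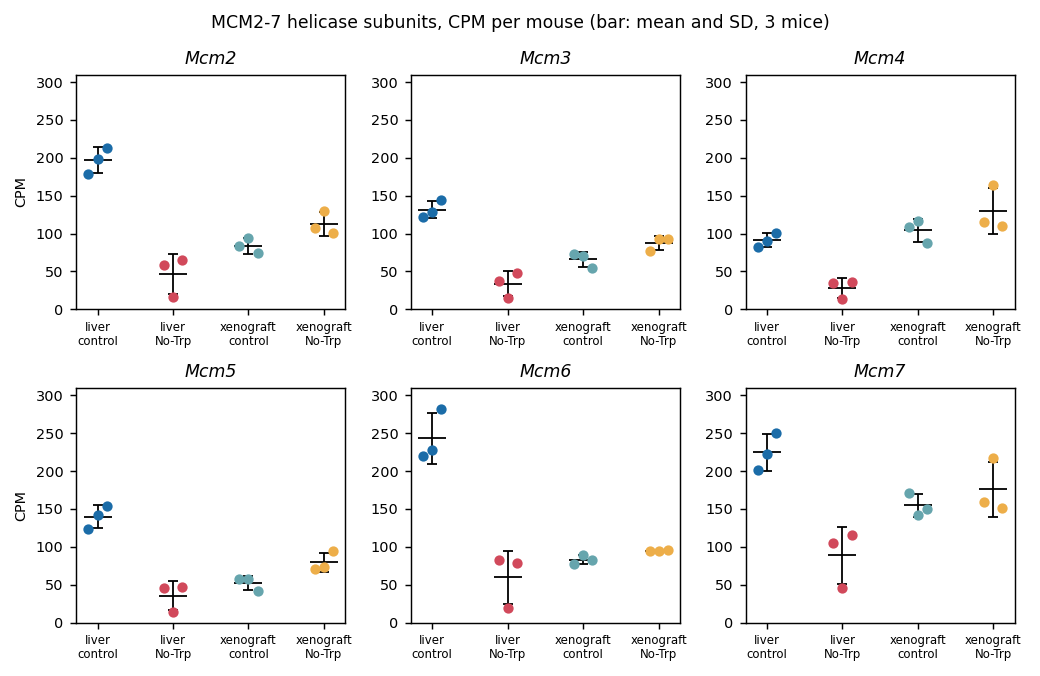
Each panel shows 1 subunit of the MCM2-7 helicase, with CPM on the vertical axis and the 4 groups of 3 mice on the horizontal axis. Points are mice and bars the mean and SD. In every panel the 3 No-Trp livers lie below the 3 control livers, as for Mcm6 at 82, 18.8 and 78.2 against 220.2, 228 and 282 CPM.

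Of the other MCM genes in the set, 1 of 2 was called, and for both all No-Trp livers lay below all control livers. Mcm8, a helicase subunit used in repair of broken DNA, fell from 22.7, 18.7 and 18.8 CPM to 9.44, 6.03 and 12.5 CPM (log2 change -1.09 ± 0.29, adjusted p = 0.0355). Mcm10, a fork protein outside the ring, stood at 64.3, 93.5 and 60.9 CPM in the control livers and 43.6, 56.5 and 53.5 CPM in the No-Trp livers, a log2 fold change of -0.49 ± 0.21 (SE, adjusted p = 0.117) that did not pass the test. Its highest No-Trp liver was mouse 107, the mouse that was lowest for most of the others.

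Of CDC45 and the GINS subunits, 3 of 5 fell. Cdc45 went from 52.3, 34 and 46.5 CPM to 16.4, 6.77 and 19.7 CPM, with a log2 fold change of -1.62 ± 0.39 (SE, adjusted p = 0.0294). Gins2 went from 27.1, 19.6 and 24.9 CPM to 10.9, 2.89 and 8.94 CPM (log2 change -1.65 ± 0.45, adjusted p = 0.0389), but it shares 2758 exonic bases with Gse1. Gins1 went from 35.7, 28 and 29.2 CPM to 15.5, 9.96 and 14.3 CPM (log2 change -1.21 ± 0.22, adjusted p = 0.0196). The GINS subunits are needed in equal numbers in the complex. Gins3 and Gins4 did not pass the test, but whether their changes differ from those of the other subunits was not tested. Gins3 was the lowest of all 45 genes, at 6.66, 4.68 and 4.95 CPM and 2.86, 1.11 and 4.90 CPM (log2 change -0.87 ± 0.50, adjusted p = 0.227), and Gins4 stood at 50.5, 40.2 and 39 CPM and 30.4, 30.3 and 41.7 CPM (log2 change -0.32 ± 0.20, adjusted p = 0.250). For both, mouse 108 lay within the range of the control livers.

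All 4 genes of polymerase alpha and primase fell. Pola1, the catalytic subunit (chrX:93304767-93632155, minus strand), went from 23.5, 35.8 and 42 CPM to 11.4, 7.81 and 11.3 CPM, with a log2 fold change of -1.72 ± 0.28 (SE, adjusted p = 0.0171). Prim1, the subunit that makes the RNA primer, changed most, from 94.5, 72.7 and 84.4 CPM to 28.7, 14.1 and 31.6 CPM (log2 change -1.74 ± 0.30, adjusted p = 0.0186). Both had all No-Trp livers well below the control livers. Pola2, the accessory subunit, went from 57.2, 66.6 and 70.4 CPM to 28.5, 15.6 and 24.9 CPM (log2 change -1.48 ± 0.24, adjusted p = 0.0173), and Prim2, the large primase subunit, changed least, from 21.4, 27.1 and 28.4 CPM to 14.9, 10.5 and 15.7 CPM (log2 change -0.89 ± 0.23, adjusted p = 0.0326). In Prim2 the No-Trp livers came closest to the controls, though without overlap.

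The 3 genes of polymerase delta in the set fell. Its catalytic subunit Pold1 (chr7:44532746-44548849, minus strand) went from 72.9, 67.3 and 71.4 CPM to 32.6, 13.2 and 28.8 CPM, with a log2 fold change of -1.49 ± 0.32 (SE, adjusted p = 0.0236). Pold2 went from 117, 127 and 130.1 CPM to 60.2, 24.8 and 64.7 CPM (log2 change -1.31 ± 0.34, adjusted p = 0.0336), and Pold3 from 51.5, 42.4 and 50.9 CPM to 26.2, 19.4 and 30.7 CPM (log2 change -0.91 ± 0.21, adjusted p = 0.0264). The fourth and smallest subunit, Pold4, was not one of the 45 but belonged to the list of other replication factors. It rose in the livers, from 9.22, 7.38 and 6.91 CPM to 18.7, 22.5 and 21 CPM (log2 change 1.42 ± 0.21, adjusted p = 0.0160), with all No-Trp livers above all control livers, opposite to the other 3 subunits.

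In polymerase epsilon, too, 1 small subunit stood apart. Pole, its catalytic subunit (chr5:110286306-110337474, plus strand), went from 95.2, 73.6 and 93.3 CPM to 31.4, 11.4 and 32.3 CPM, with a log2 fold change of -1.79 ± 0.38 (SE, adjusted p = 0.0236). Pole2, the second subunit, changed most, from 25.4, 18.5 and 20.4 CPM to 6.35, 1.72 and 6.84 CPM (log2 change -2.10 ± 0.48, adjusted p = 0.0266). Pole3, a small histone-fold subunit, went from 52.3, 49.5 and 51.4 CPM to 31.2, 24 and 32.5 CPM (log2 change -0.79 ± 0.17, adjusted p = 0.0236). Pole4, its histone-fold partner, was the only one of the 45 with a positive value, at 73.8, 53.6 and 59 CPM in the control livers and 67.7, 83.3 and 93.3 CPM in the No-Trp livers (log2 change 0.41 ± 0.19, adjusted p = 0.147). That difference did not pass the test, and the groups overlapped.

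Of the clamp and its loader, 4 of 6 genes fell. Pcna (chr2:132249162-132253314, minus strand) went from 229.9, 198 and 226 CPM to 95.1, 66.7 and 102 CPM and had the smallest adjusted p of the 45, with a log2 fold change of -1.29 ± 0.20 (SE, adjusted p = 0.0163). Of the loader subunits, Rfc4 changed most, from 46.1, 34.1 and 38.9 CPM to 11, 6.46 and 16.9 CPM (log2 change -1.79 ± 0.34, adjusted p = 0.0202). Rfc5 went from 87.7, 67.2 and 79.6 CPM to 30.8, 16.4 and 36.8 CPM (log2 change -1.47 ± 0.30, adjusted p = 0.0219). In these 3 genes mouse 107 was again lowest and the diets did not overlap. Rfc1, the large subunit, went from 99.9, 93.5 and 109 CPM to 58.1, 41.9 and 66.2 CPM (log2 change -0.85 ± 0.19, adjusted p = 0.0264). Rfc2 stood at 78.6, 71.8 and 72.2 CPM and 46.9, 39.1 and 63.6 CPM (log2 change -0.56 ± 0.20, adjusted p = 0.0738), and Rfc3 at 23.7, 25.9 and 21.3 CPM and 16.8, 7.5 and 18.9 CPM (log2 change -0.70 ± 0.33, adjusted p = 0.155), and neither passed the test. The loader subunits thus ranged from -1.79 to -0.56 on the log2 scale.

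RPA is a trimer of which the 2 larger subunits fell. Rpa1, the DNA-binding subunit, went from 114, 138 and 141 CPM to 81.8, 52.3 and 73.4 CPM, with a log2 fold change of -0.91 ± 0.20 (SE, adjusted p = 0.0250). Rpa2 went from 68.1, 60.1 and 72.5 CPM to 30.8, 15.1 and 30.2 CPM (log2 change -1.39 ± 0.28, adjusted p = 0.0220). Rpa3, the smallest subunit, stood at 61.2, 38 and 34.1 CPM and 22, 14 and 28.4 CPM (log2 change -1.04 ± 0.32, adjusted p = 0.0529), just past the threshold, and DESeq2 called it lower. Its control livers spread widely, mouse 101 being the highest.

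Of the 6 genes for Okazaki fragment processing, 5 fell. Lig1, the ligase that joins the fragments (chr7:13277283-13311433, plus strand), went from 96.7, 127 and 118 CPM to 42.3, 18.3 and 40.2 CPM, with a log2 fold change of -1.74 ± 0.32 (SE, adjusted p = 0.0196). Fen1, the flap nuclease, went from 93.8, 64.6 and 82.3 CPM to 26.6, 12.1 and 34.4 CPM (log2 change -1.71 ± 0.37, adjusted p = 0.0244). Dna2, a nuclease and helicase that trims long flaps, went from 110.0, 105 and 125 CPM to 66.8, 35.8 and 62.3 CPM (log2 change -1.03 ± 0.24, adjusted p = 0.0283). For each of these the lowest control liver lay well above the highest No-Trp liver. Of the RNase H2 genes, which remove RNA from DNA, Rnaseh2b went from 48.2, 36 and 40.2 CPM to 17.6, 8.61 and 25 CPM (log2 change -1.27 ± 0.36, adjusted p = 0.0434) and Rnaseh2c from 91.8, 59.3 and 65.4 CPM to 28.8, 22.9 and 44.5 CPM (log2 change -1.16 ± 0.29, adjusted p = 0.0305). Rnaseh2a, the catalytic subunit, stood at 94.1, 60.6 and 70.6 CPM and 40.4, 23.7 and 54.7 CPM (log2 change -0.91 ± 0.32, adjusted p = 0.0713) and did not pass the test, although its diets did not overlap.

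The genes with and without an E2F word in their promoter both fell in the livers. The median log2 fold change was -1.73 over the 16 with a word and -1.28 over the 20 without, and 13 of the 16 and 17 of the 20 were called lower. Values with a word ranged from -2.55 (Cdc6) to 0.41 (Pole4), and values without from -2.07 (Mcm2) to -0.49 (Mcm10), so the ranges overlapped. Mcm2 and Rfc4, whose promoters hold none of the words, were among the genes that fell most. E2F binding was not measured in either set, and the 9 genes without a promoter sequence are in neither.

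Other genes of the replication pathway were read from lists. Of 34 other replication factors, 23 were lower and 1, Pold4, was higher in the No-Trp livers, with a median log2 fold change of -1.58. Among them, the DDK kinase gene Cdc7, which fires licensed origins, had a log2 fold change of -2.05 ± 0.46 (SE, adjusted p = 0.0261), and Dbf4, its activating partner, one of -1.66 ± 0.42 (SE, adjusted p = 0.0333). Of 9 genes for the supply of deoxynucleotides, 6 were lower. Rrm2, the regulated subunit of ribonucleotide reductase, fell (log2 change -2.11 ± 0.53, adjusted p = 0.0331), while the thymidine kinase gene Tk1 stood at 100.4, 94.7 and 82.6 CPM and 85.6, 104 and 86.2 CPM (log2 change 0.01 ± 0.15, adjusted p = 0.974). Of 15 mitosis genes, 13 were lower, with a median of -2.08, and Mki67, the proliferation marker, had a log2 fold change of -2.39 ± 0.48 (SE, adjusted p = 0.0223).

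Markers of other cells moved with the diet in the livers as well. Of 14 erythroid precursor markers, 9 were tested and 7 were lower, with a median log2 fold change of -4.62. They summed to 76.2, 735 and 473 CPM in the control livers and 17.9, 21.2 and 34 CPM in the No-Trp livers. The globin genes Hba-a1, Hbb-bt and Hbb-bs were at 0 in every liver, even where Slc4a1 stood at 314 CPM (control mouse 102). These zeros do not show that globin transcripts were absent. Whether their reads were lost in preparation or counting was not tested. The control liver with the least erythroid signal, mouse 101, had as much of the 45 genes as the others (3576, 3335 and 3698 CPM summed, against 1573, 913 and 1757 CPM in the No-Trp livers). Of 6 neutrophil markers, 1 was lower, where 12% of all genes were. Their sum was 152 to 160 CPM in the control livers and 8.06 to 82.9 CPM in the No-Trp livers. Of 11 hepatocyte markers tested, 6 were higher, with a median log2 fold change of 1.76. Mouse 107, lowest in the replication genes, was highest in the hepatocyte sum. The share of all genes called higher in the livers was not counted, so higher calls of markers stand without a background. Of 7 endothelial markers, 3 were higher, and they summed to 119, 242 and 192 CPM in the control livers and 336, 443 and 257 CPM in the No-Trp livers, without overlap. Of 7 macrophage markers, 2 were higher, and their sums of 196, 375 and 268 CPM and 491, 259 and 513 CPM overlapped. The part of these cells in the fall of the replication genes was not tested. The plot of summed levels sets these lists side by side.

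**Figure D3:**
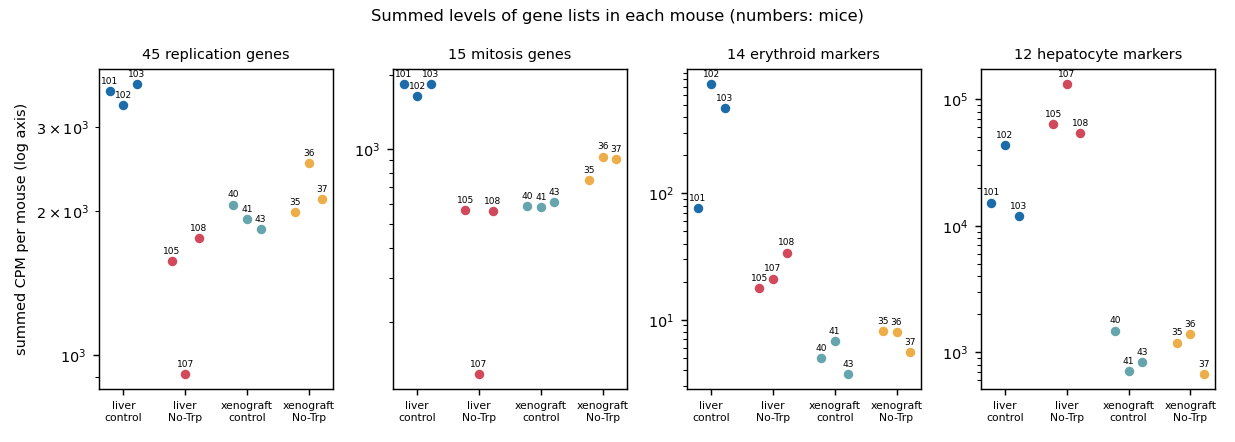
Each panel sums the CPM of 1 gene list in each mouse, on a log axis, for the 4 groups, with mouse numbers above the points. The replication and mitosis genes are lowest in liver 107 (913 and 123 CPM), where the hepatocyte markers are highest, while the erythroid markers of control liver 101 (76.2 CPM) lie far below those of controls 102 and 103.

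The second comparison asked the same of the HCC53N xenografts. None of the 45 genes was called lower by edgeR, where 0.129% of all 14704 genes tested were, and none higher, where 0.245% were. Of the 45, 6 had an unadjusted p under 0.05, against 16.9% of all genes, and DESeq2 called 1 higher and none lower. The fitted change was positive for 34 genes and negative for 11, with a median of 0.17 against -0.00 over all genes, and ranged from -0.45 (Gins1) to 0.82 (Pole). All 3 No-Trp tumors lay above all 3 control tumors for 12 genes, as they did for 10.8% of all genes, and below them for 2 genes, as they did for 11.8%. Mouse 36 was the highest of the 6 tumors for 23 of the 45 genes, and the median was 0.10 without it and 0.25 without mouse 35.

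The gene with the largest value, Pole, stood at 30.3, 33.1 and 36.7 CPM in the control tumors and 54, 75.6 and 49 CPM in the No-Trp tumors (log2 change 0.82 ± 0.19, adjusted p = 0.102). It was the 1 gene that DESeq2 called, with an adjusted p of 0.0160. Mcm8 stood at 5.79, 6.02 and 8.35 CPM and 8.56, 13 and 10.5 CPM (log2 change 0.66 ± 0.28, adjusted p = 0.276), and Mcm5 at 56.9, 57.9 and 41.3 CPM and 71, 73.4 and 94.2 CPM (log2 change 0.60 ± 0.19, adjusted p = 0.175). In all of these the No-Trp tumors were the higher ones without overlap. Of the other helicase subunits, Mcm2 stood at 82.9, 94.3 and 73.7 CPM and 108, 130.1 and 100.2 CPM (log2 change 0.42 ± 0.16, adjusted p = 0.243). Mcm3 stood at 72.6, 70.8 and 54.4 CPM and 76.3, 92.7 and 93.3 CPM (log2 change 0.40 ± 0.17, adjusted p = 0.276), and Mcm6 at 76.8, 89.1 and 83.2 CPM and 94.1, 94.9 and 96 CPM (log2 change 0.18 ± 0.13, adjusted p = 0.522). These were also separated, Mcm6 narrowly, and none passed the test. Mcm4 stood at 109, 117 and 87.4 CPM and 116, 164 and 109 CPM (log2 change 0.30 ± 0.19, adjusted p = 0.467), and Mcm7 at 172, 142 and 150.3 CPM and 159.6, 217 and 151 CPM (log2 change 0.17 ± 0.18, adjusted p = 0.656), both with overlap and with mouse 36 highest.

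No licensing gene passed the edgeR or DESeq2 test in the tumors, and none had an unadjusted edgeR p under 0.05. Cdc6 stood at 18.6, 16.9 and 11.1 CPM and 18.1, 28.5 and 21.6 CPM (log2 change 0.54 ± 0.25, adjusted p = 0.329). Cdt1 stood at 49.5, 55.2 and 48.1 CPM and 43.6, 69.8 and 59.3 CPM (log2 change 0.17 ± 0.19, adjusted p = 0.698), and Gmnn at 26.7, 22.7 and 29.6 CPM and 20.9, 27.6 and 26.5 CPM (log2 change -0.09 ± 0.19, adjusted p = 0.851). Orc1 stood at 5.05, 6.46 and 5.61 CPM and 5.55, 9.04 and 5.68 CPM, with mouse 36 apart from the rest. Orc2 was separated by diet, at 32.7, 42.9 and 44.8 CPM and 48.1, 59.1 and 47.3 CPM (log2 change 0.35 ± 0.17, adjusted p = 0.350), and Orc6 was not, at 57.4, 51.7 and 55.7 CPM and 43.1, 56.2 and 62.6 CPM (log2 change -0.04 ± 0.17, adjusted p = 0.940).

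At the fork, Cdc45 stood at 36.3, 33 and 29.8 CPM and 34.7, 38.8 and 35.4 CPM, and Gins2 at 17.5, 15.9 and 16.8 CPM and 17.2, 19.2 and 19.3 CPM. Gins1 lay lower without tryptophan, at 14.9, 13.8 and 16.5 CPM and 10.3, 12.9 and 10.2 CPM (log2 change -0.45 ± 0.21, adjusted p = 0.320), as did Rnaseh2c, at 43.7, 32.6 and 30.8 CPM and 27, 27.1 and 26.9 CPM (log2 change -0.42 ± 0.18, adjusted p = 0.277). They were the 2 genes with all No-Trp tumors below all control tumors. Of the primase complex, Prim1 stood at 30.6, 31.5 and 23.6 CPM and 32.2, 40.8 and 37.5 CPM, Pola1 at 23.3, 26.4 and 17.8 CPM and 25.6, 32.5 and 28.5 CPM, Pola2 at 43.9, 41.4 and 48.9 CPM and 49.3, 60.1 and 39.8 CPM, and Prim2 at 18.3, 20.3 and 20.7 CPM and 19, 23.9 and 24 CPM. Only Prim1 of these 4 was separated by diet, by less than 1 CPM.

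Of the polymerase subunits, Pold1 stood at 28.7, 29.2 and 26.1 CPM and 30.4, 36.4 and 40.9 CPM (log2 change 0.35 ± 0.17, adjusted p = 0.334) with no overlap. Pold2 stood at 50.9, 35.9 and 36.2 CPM and 39.6, 44.5 and 51.4 CPM, Pole2 at 8.34, 8.98 and 7.43 CPM and 8.89, 12.3 and 8.57 CPM, Pole3 at 28.7, 34.3 and 31.4 CPM and 33.8, 33.9 and 34.8 CPM and Pole4 at 36.8, 37.1 and 23.5 CPM and 31.5, 42 and 24.7 CPM, with fitted changes of 0.13, 0.25, 0.11 and -0.00. The diets overlapped in each of these 4. Pcna stood at 184, 179 and 149 CPM and 157, 241 and 161 CPM (log2 change 0.11 ± 0.20, adjusted p = 0.817), with mouse 36 the highest and the other 2 No-Trp tumors within the control range. Of the loader, Rfc1 stood at 61.2, 56.7 and 54.6 CPM and 62.4, 77.3 and 56.4 CPM, Rfc4 at 17, 16.5 and 12.5 CPM and 15.7, 20.8 and 19.5 CPM and Rfc5 at 37.8, 26.3 and 24.4 CPM and 31.6, 50.6 and 36.4 CPM, all with overlap.

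Of the remaining genes, Rpa1 stood at 87, 85.8 and 90.1 CPM and 98.5, 109 and 99.4 CPM (log2 change 0.21 ± 0.13, adjusted p = 0.452), and Rpa2, which lay the other way, at 29.2, 22.1 and 19.2 CPM and 19.9, 22.3 and 17.1 CPM (log2 change -0.26 ± 0.21, adjusted p = 0.556). Rpa1 was separated by diet and Rpa2 was not. Lig1 stood at 51.3, 44.2 and 42.2 CPM and 45.6, 52 and 61.2 CPM, and Fen1 at 62.1, 47.5 and 49 CPM and 58, 60.9 and 59.9 CPM, both with overlap. Dna2 stood at 11.6, 12.7 and 11.7 CPM and 16.8, 18 and 14 CPM (log2 change 0.43 ± 0.20, adjusted p = 0.309), separated by diet. Among members not given per mouse in the tumors, the fitted log2 change was positive for Gins3 (0.47), Mcm10 (0.16), Rfc2 (0.07) and Rnaseh2b (0.06). It was negative for Gins4 (-0.26), Rnaseh2a (-0.23), Rpa3 (-0.15), Pold3 (-0.12) and Rfc3 (-0.11). Among the other lists, none of the 34 replication factors or the 9 deoxynucleotide genes was called in either direction by edgeR (7 and 3 had a positive change at an unadjusted p under 0.05, and DESeq2 called 1 and 0 higher). Of the 15 mitosis genes, 11 had a positive change at an unadjusted p under 0.05, with a median log2 fold change of 0.56, and their sum was 588, 583 and 611 CPM in the control tumors and 747, 933 and 909 CPM in the No-Trp tumors, without overlap. By edgeR 1 of them was called higher, and by DESeq2 3. The 1 called by edgeR was Kif11, a spindle motor gene, at 29.4, 31.1 and 24.1 CPM and 52.8, 60.8 and 66.3 CPM (log2 change 1.08 ± 0.17, adjusted p = 0.0436). Adipocyte markers, 3 of 6 called higher by edgeR, summed to 14.2, 69.1 and 15.8 CPM in the control tumors and 504, 389 and 823 CPM in the No-Trp tumors. Macrophage markers summed to 107, 149 and 109.6 CPM and 279, 235 and 177 CPM, without overlap, although edgeR called none of the 7 (2 were higher at an unadjusted p under 0.05, and DESeq2 called 1). Bile duct markers summed to 10799.5, 7636 and 3911 CPM and 2946, 5044 and 3983 CPM, with overlap, and edgeR called none of the 6 (2 were lower at an unadjusted p under 0.05, and DESeq2 called 1). The part of these cells in the values of the replication genes was not tested. At an unadjusted p under 0.05, 16.9% of all genes changed in either direction. The share in 1 direction alone was not counted, so the counts of higher or lower genes at that p stand without a background.

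The difference between the 2 diet effects was tested in 1 fit over all 12 libraries. It was called for 32 of the 45 genes, all with a more positive diet effect in the xenografts, as it was for 8.25% of all 15472 genes. The median difference was 1.53 on the log2 scale, and 41 genes had an unadjusted p under 0.05. Cdc6 had the largest difference, 3.11 ± 0.51 (SE, adjusted p = 0.00655), followed by Pole with 2.64 ± 0.45 (SE, adjusted p = 0.00744) and Mcm5 with 2.58 ± 0.50 (SE, adjusted p = 0.0105). All 6 genes of MCM2-7 and all 4 of polymerase alpha and primase were called, as were 5 of 6 licensing genes, all but Gmnn. The 13 genes without a call were Gmnn, Mcm10, Gins1, Gins3, Gins4, Pold3, Pole4, Rfc2, Rfc3, Rpa3 and the 3 RNase H2 genes, with differences from -0.38 (Pole4) to 1.37 (Gins3). Without control liver 103, 21 genes were called. The plot of both diet effects shows the separation by complex.

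**Figure D4:**
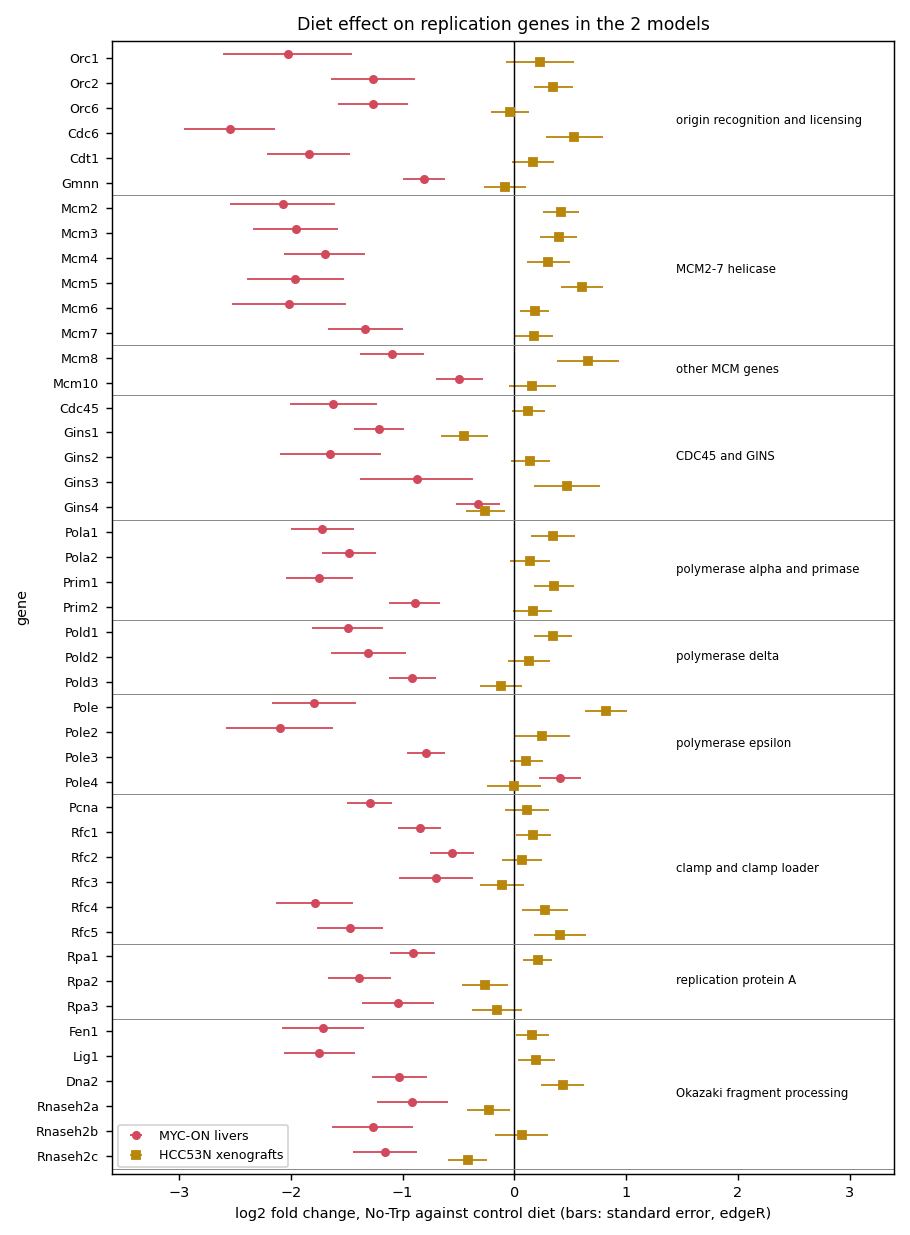
The log2 fold change of the No-Trp against the control diet is on the horizontal axis for each of the 45 genes, grouped by complex, in the livers (circles) and the xenografts (squares), with bars for the standard error. The liver values centre on a median of -1.31 and the xenograft values on 0.17, and the 2 come together at Gins4 and change order at Pole4.

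The levels were then compared between the models on the same diet. Tissue site, host strain, sex and genotype all differ between the models and cannot be told apart. On the control diet, 21 of the 45 genes were lower in the xenografts at a log2 fold change of -1 or less, where 20.2% of all genes were, and 1 was higher by at least 1, where 23.3% were, with a median of -0.98 against 0.01 over all genes. Dna2 was furthest apart, at 11.6, 12.7 and 11.7 CPM in the xenografts and 110.0, 105 and 125 CPM in the livers (log2 change -3.24 ± 0.23, adjusted p = 2.42e-07). Mcm10 followed with -1.93 ± 0.22 (SE, adjusted p = 1.25e-05), and Rnaseh2b with -1.85 ± 0.32 (SE, adjusted p = 0.000396). The 1 higher gene was Rfc3, at 54.4, 41.6 and 68.9 CPM in the xenografts and 23.7, 25.9 and 21.3 CPM in the livers (log2 change 1.22 ± 0.29, adjusted p = 0.00311). Its neighbours in the 5-subunit loader lay the other way, Rfc4 at -1.37 ± 0.30 (SE, adjusted p = 0.00168) and Rfc5 at -1.40 ± 0.29 (SE, adjusted p = 0.00125).

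On the No-Trp diet, 15 of the 45 genes were higher in the xenografts at a log2 fold change of at least 1, where 24.5% of all genes were. At a log2 fold change of -1 or less, 3 were lower, where 19.1% of all genes were. The fitted value was positive for 35 genes and negative for 10, with a median of 0.67 against 0.15 over all genes. Together these 18 calls were 9 without liver 107. Mcm4 was furthest up, at 116, 164 and 109 CPM against 34.3, 13.2 and 36.2 CPM (log2 change 2.22 ± 0.32, adjusted p = 8.94e-05), followed by Orc6 with 1.84 ± 0.27 (SE, adjusted p = 8.8e-05) and Rfc3 with 1.84 ± 0.30 (SE, adjusted p = 0.000202). The 3 lower genes were Dna2 (log2 change -1.75 ± 0.21, adjusted p = 2.29e-05), Pole4 (log2 change -1.31 ± 0.24, adjusted p = 0.000493) and Mcm10 (log2 change -1.25 ± 0.21, adjusted p = 0.000340), which were also among the lower genes on the control diet, although Pole4 did not reach a fold change of 1 there (-0.94). The No-Trp livers enter this comparison and the liver diet comparison alike, so the 2 are not independent.

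**Figure D5:**
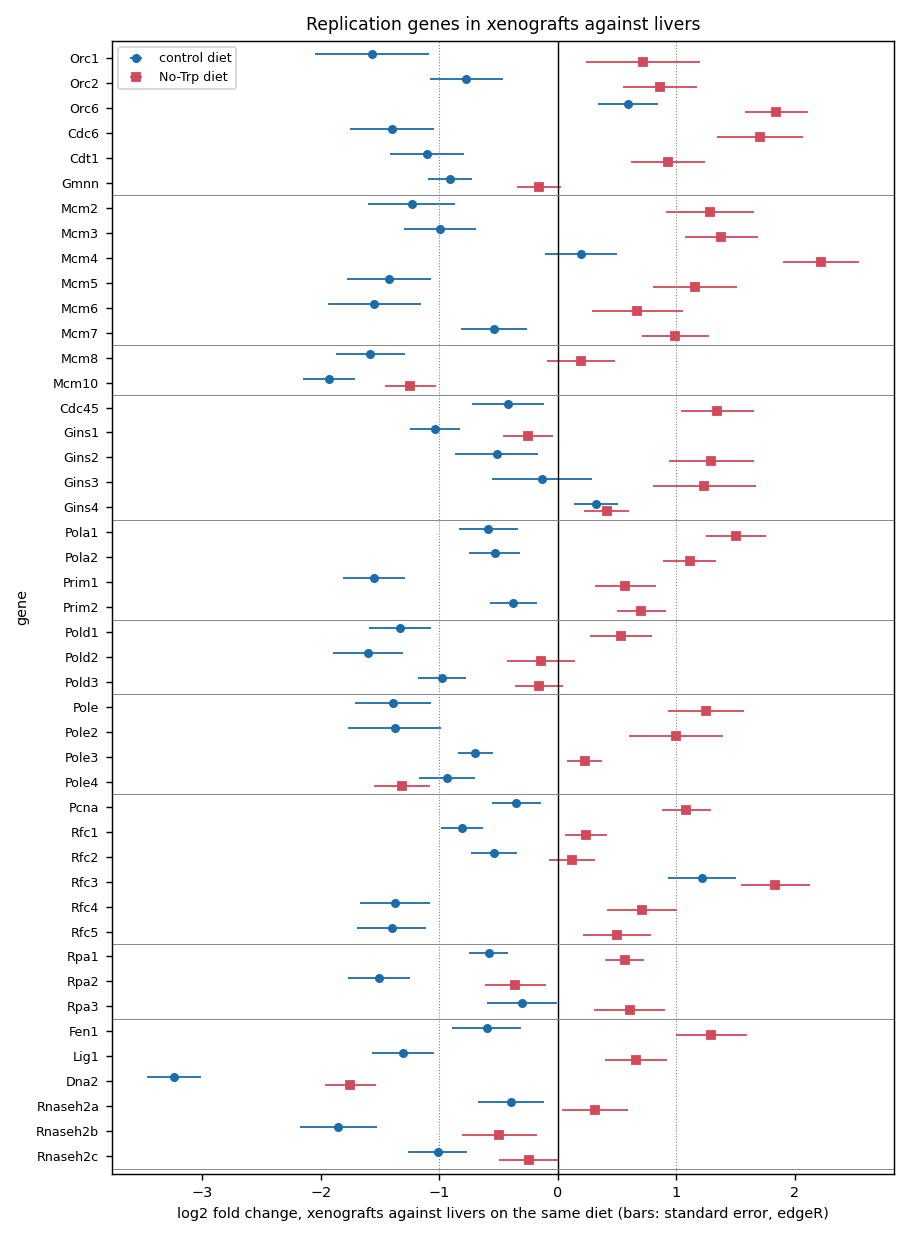
The log2 fold change of xenografts against livers on the same diet is on the horizontal axis for each of the 45 genes, for the control diet (circles) and the No-Trp diet (squares), with bars for the standard error and dotted lines at -1 and 1. Most circles lie left of 0 (median -0.98) and most squares right of it (median 0.67), while Dna2 and Mcm10 lie left on both diets and Rfc3 right on both.

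Levels of different genes were compared per kilobase of exon, using the exonic bases of the gene in the GENCODE basic annotation. In the control livers, Pcna led the 45 genes with 144 ± 11.4 CPM per kb (SD over 3 mice), and Gins3 was last with 2 ± 0.396. Within the MCM2-7 ring, Mcm7 was highest (76 ± 8.30), then Mcm2 (58.4 ± 5.18) and Mcm6 (55.6 ± 7.71), then Mcm3 (43.4 ± 3.66) and Mcm5 (40.5 ± 4.38), and Mcm4 was lowest (25.4 ± 2.61). The spreads of Mcm2 and Mcm6 overlapped, as did those of Mcm3 and Mcm5. The genes were measured in the same mice and no test was run between them, so equal levels are not shown. In the control xenografts Mcm7 was again highest (52.2 ± 5.18), but Mcm4 came second (29.1 ± 4.23), Mcm2 was close to it (24.8 ± 3.05), and Mcm5 was last (15 ± 2.7). On the control diet Mcm4 was the one ring subunit with a positive value in the xenografts against the livers, 0.19 ± 0.30 (SE, adjusted p = 0.604), which did not pass the test, while the other 5 had values from -1.55 to -0.54.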

How the data were processed

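Raw gene counts were deposited for 12 libraries of 1 mouse each. The authors used Trim Galore for trimming, STAR 2.7.2b for alignment to mm10 and HTSeq for counting; the strand setting and the rule for overlapping genes are not given in the sources used here. Reads that the counting left out (24.7% to 39.4% per library) were kept out of library sizes. The quasi-likelihood test of edgeR 4.0.16 (R 4.3.3; TMM factors, filterByExpr, robust fit, two-sided) was run on the 6 livers and the 6 xenografts separately for the diets, and on the 12 libraries jointly for the models and for the difference of the diet effects. Adjustment followed Benjamini and Hochberg over every gene in the test, and SE is the log2 fold change over the square root of F. Library pairs within a group differed beyond sampling noise (chi-square over its degrees of freedom, 34.6 to 274). The fits were tested on simulated data. Gene positions and exons came from GENCODE M21 (GRCm38) and promoters from RefSeq. Exon lengths for CPM per kb came from the GENCODE basic annotation. Alternatives were DESeq2 1.42.0, other scaling and filters, removal of Rn45s (12.1% of counts in liver 101), 1 joint fit, and leaving out each mouse. Another was a covariate for the 4 libraries named as resubmitted (livers 101 and 108, xenografts 41 and 43). Both of those xenografts were control tumors, so in the xenograft fit the covariate set control tumor 40 alone against the No-Trp tumors. Values per mouse are given for the largest and smallest liver change of each complex, the MCM2-7 genes, Pcna, Cdc6, Cdt1, Gmnn and every gene with a call in the xenografts or the difference of diet effects; those of other members were added after their values were seen. The 45 genes and the lists were chosen with earlier results of these data known.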

Additional observations from a re-analysis of the deposited data

Results flagged for a closer look

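For 32 of the 45 replication genes the diet effect in the xenografts differed from that in the livers by the interaction term of the edgeR fit over all 12 libraries. A diet effect more positive in the xenografts was called for 8.25% of all 15472 genes tested. Each value is the log2 diet effect in the xenografts minus that in the livers, and all 32 are positive. In origin licensing, it was 2.28 for Orc1, 1.64 for Orc2, 1.25 for Orc6, 3.11 for Cdc6 and 2.03 for Cdt1. In the MCM2-7 helicase, it was 2.52 for Mcm2, 2.38 for Mcm3, 2.03 for Mcm4, 2.58 for Mcm5, 2.22 for Mcm6 and 1.53 for Mcm7. For the repair helicase subunit gene Mcm8 it was 1.78. In CDC45 and GINS, it was 1.77 for Cdc45 and 1.81 for Gins2. In polymerase alpha and primase, it was 2.09 for Pola1, 1.65 for Pola2, 2.12 for Prim1 and 1.08 for Prim2. In polymerase delta, it was 1.86 for Pold1 and 1.46 for Pold2. In polymerase epsilon, it was 2.64 for Pole, 2.38 for Pole2 and 0.92 for Pole3. In the clamp and its loader, it was 1.43 for Pcna, 1.05 for Rfc1, 2.09 for Rfc4 and 1.91 for Rfc5. In replication protein A, it was 1.14 for Rpa1 and 1.15 for Rpa2. In Okazaki fragment processing, it was 1.9 for Fen1, 1.96 for Lig1 and 1.49 for Dna2. The genes with these values fell in the livers, and no gene of the 45 passed the edgeR test in the xenografts.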

How the results depend on the processing

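Among the livers, the direction of all 45 single values was kept under every alternative: 496 single values stayed on their side of the threshold, 118 lost their call and 16 gained one. The count of 37 lower genes was 37 to 40 under other scaling, filters, DESeq2, the resubmission covariate, removal of Rn45s and the joint fit, and ran from 0 to 37 when 1 mouse was left out. The liver median of -1.31 became -1.56 with plain library totals, which also moved the median of all genes to -0.30, and ran from -1.53 to -1.05 when 1 mouse was left out. In the xenografts, the median of 0.17 became 0.27 with library totals, where the median of all genes was 0.11, and ran from 0.10 to 0.25 when 1 mouse was left out. With the resubmission covariate the xenograft median was 0.13 (0.016 over all genes), with 16 of the 45 genes negative. That fit set control tumor 40 alone against the No-Trp tumors. The count of higher genes in the xenografts was 1 with DESeq2 and 0 under the other alternatives, and none was lower under any. The 32 differences between the diet effects were 31 to 36 under the other settings and 21 to 37 when 1 mouse was left out. The 22 differences between the models on the control diet were 19 to 27 in all fits with the fold threshold and 31 without it. The 18 on the No-Trp diet were 25 without the fold threshold, 28 with library totals and 9 to 24 when 1 mouse was left out. Leaving out liver 107 gave the lowest count. The causes were not tested.

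The diet differences that changed sign were all xenograft values, which ran from -0.15 (Rpa3) to 0.23 (Orc1) in the main fit. Of the differences between the diet effects 1 changed sign, Gins4, from 0.091 to -0.036 without control liver 101. In the xenografts with library totals, Orc6 was 0.065, Gmnn 0.015 and Pole4 0.11. With the resubmission covariate, Cdc45 was -0.0072, Pold2 -0.18, Rfc2 -0.16, Fen1 -0.066 and Rnaseh2b -0.22. Pole4 was 0.0090 with RLE factors, 0.012 without a filter, 0.013 with at least 10 counts, 0.0069 with DESeq2, 0.010 without Rn45s and 0.011 in the joint fit. With 1 mouse left out, the values ran from -0.032 to 0.37 for Orc1, -0.15 to 0.12 for Orc6, -0.19 to 0.042 for Gmnn, -0.0029 to 0.28 for Mcm7, -0.026 to 0.27 for Mcm10, -0.016 to 0.29 for Pola2, -0.23 to 0.010 for Pold3, -0.22 to 0.17 for Pole4, -0.12 to 0.24 for Pcna, -0.065 to 0.20 for Rfc2, -0.28 to 0.090 for Rfc3, -0.36 to 0.026 for Rpa3 and -0.035 to 0.23 for Rnaseh2b.

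No paired analysis was possible because the groups compared share no replicate numbers. Counting error was largest for Orc1, Gins3 and Pole2 in liver 107, at 24.3%, 23.6% and 18.9%.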
